A study of Mus musculus with 6 samples.

Results

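The NF-κB subunit genes and the genes of their IκB inhibitors are described here across 6 groups of mouse macrophages. The members were taken by symbol: Nfkb1, Nfkb2, Rel, Rela and Relb encode the subunits, and Nfkbia, Nfkbib, Nfkbie, Nfkbiz and Bcl3 encode IκB proteins. All 10 were found among the 23699 rows of each table, each at 1 locus, and all 10 passed the filter on low values. The cells were peritoneal macrophages of C57Bl/6 mice, either wild type (WT) or without the X-linked microRNA pair miR-221/222 (KO, miR-221/222 -/Y). Naive cells were untreated, and LPS cells received 1000 ng/ml lipopolysaccharide, a bacterial cell wall component sensed by Toll-like receptor 4, for 4 h. Tolerized cells had a first dose of 10 ng/ml LPS over 15 h, then a wash and 2 h of rest, and then the same 1000 ng/ml for 4 h. Poly-A mRNA was sequenced, and each of the 6 groups had 1 library, although the series speaks of triplicates.

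NF-κB is a dimer of Rel-family proteins that waits in the cytoplasm bound to an IκB. LPS activates the IκB kinase (IKK), which marks the inhibitor for degradation and frees the dimer to enter the nucleus and switch on genes of inflammation. Several subunit and inhibitor genes are themselves NF-κB targets, which gives the pathway feedback loops known well from macrophages. Nfkb1 encodes p105, the precursor of p50, and Nfkb2 encodes p100, the precursor of p52. Both precursors also hold dimers back through an IκB-like tail. p50 and p52 bind DNA but lack the activation domain that RelA, c-Rel and RelB carry.

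Values are FPKM (fragments per kilobase of transcript, scaled by the mapped fragments), so levels can be compared between genes. FPKM summed to 573914 to 681618 per library. Read counts were not used, so the depth is unknown, but the deposited intervals of the 10 genes reached 1.28% to 9.62% of the value on either side. These intervals cover counting error only. The counting is not stated to use strand, and in GENCODE M21 exons of a gene on the other strand overlap 11.6% of the exon bases of Nfkb2, 14.5% of those of Nfkbib and 6.51% of those of Bcl3, so reads of these cannot be told apart. The sum over 9 pan-macrophage markers was 49046 and 39461 FPKM in naive WT and KO cells, 23536 and 18816 FPKM with LPS, and 17594 and 11644 FPKM after tolerization. Most of this sum was Lyz2, at 45134.5 and 35949 FPKM, 19661 and 16240 FPKM, and 13872 and 8538 FPKM in the same order. The sum was thus lower in both stimulated conditions, but single markers went both ways. By the test described below, 2 of the 9 were higher and 3 lower in tolerized than in naive cells. The same shares over all genes were 7.41% and 19.7%. The part of these markers in the results below was not tested. B cell markers were present in every library, with a sum over 8 genes of 793 and 593 FPKM in naive WT and KO cells, 322 and 281 FPKM with LPS, and 499 and 623 FPKM after tolerization. B cells also express NF-κB genes, and their part in the values below was not tested. In such bulk RNA, fewer cells of a type and less RNA per cell cannot be told apart. Mir221 and Mir222 were listed at 0 FPKM in all 6 libraries, WT included, so these poly-A tables do not check the knockout. Between LPS and naive cells the median log2 difference of all 10137 genes tested was -0.76, between tolerized and LPS cells 0.51, and between tolerized and naive cells -0.22. Beside many of the differences that turn on this shift, though not all, a value rescaled by the median ratio of each library to the common profile is given. The share of FPKM held by the 50 most abundant rows ranged from 34.0% to 45.8%.

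In WT naive cells the most abundant of the 10 transcripts was Nfkbia at 99.8 FPKM, followed by Nfkb1 at 81.2 and Rela at 48.4 FPKM. Nfkb2 at 37.7 and Relb at 35.9 FPKM could not be ordered, because their intervals overlapped. Nfkbie was at 31.5 FPKM. Rel, Nfkbiz, Nfkbib and Bcl3 closed the order between 15.4 and 16.7 FPKM with overlapping intervals. In the WT LPS library Nfkbia was again the highest at 809 FPKM and Rel the lowest at 33.5 FPKM. The plot of levels by library shows each gene with its interval.

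**Figure D1:**
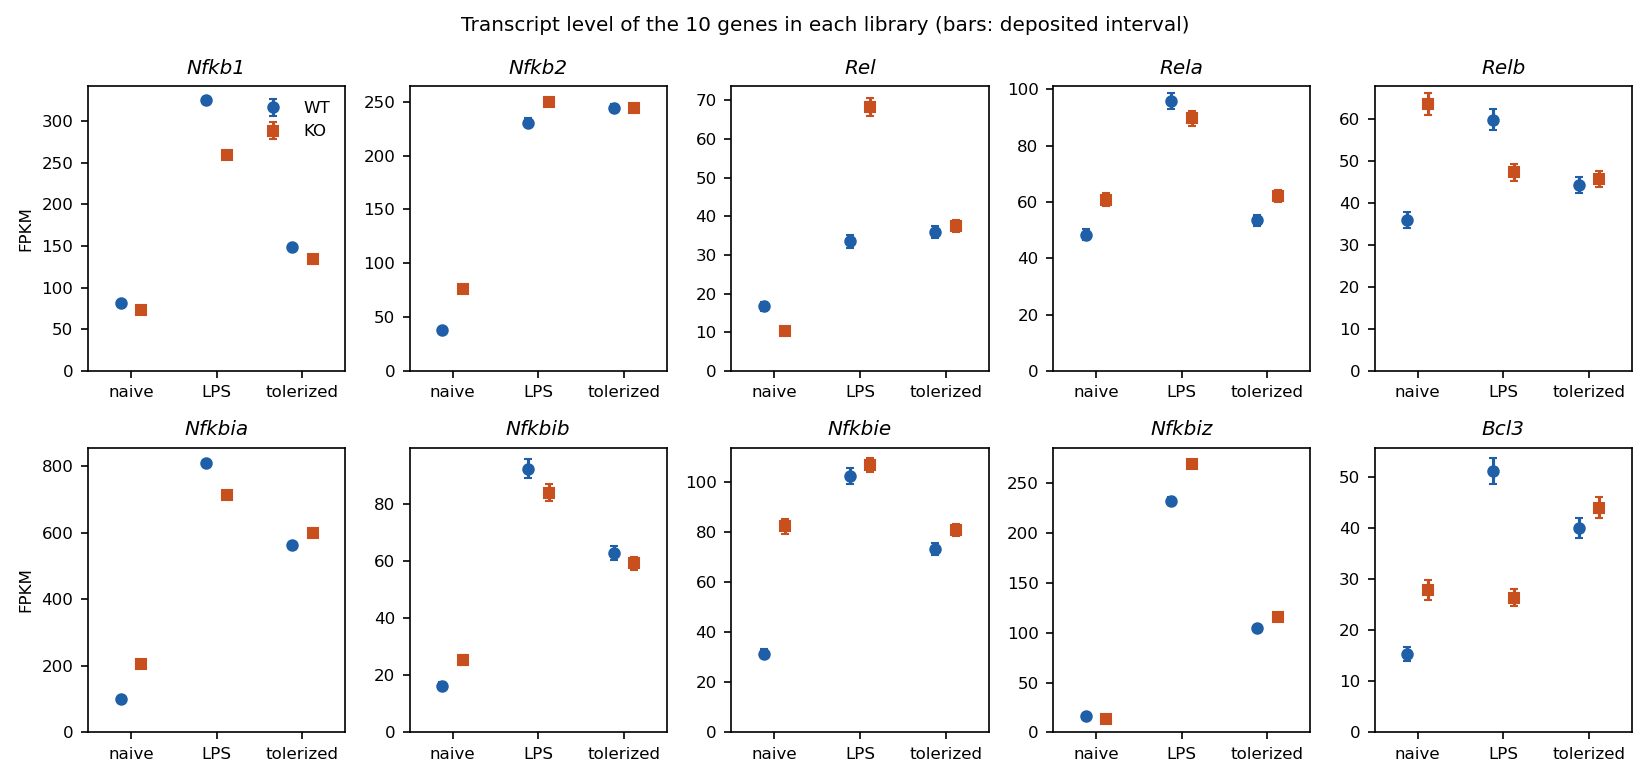
FPKM (y axis, linear from 0) of each of the 10 genes in naive, LPS and tolerized cells (x axis), WT as circles and KO as squares, 1 library per point, with the deposited interval as bars. Nfkbiz climbs from 13.3 and 16.3 FPKM in naive cells to 233 and 269 FPKM with LPS, while Relb stays between 35.9 and 63.4 FPKM.

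Promoters of the members were searched for the consensus κB element, the DNA site of NF-κB dimers, since 8 of the 10 genes rose with LPS. The windows, from RefSeq on GRCm38.p6, run from 250 bases before to 50 bases after a start site, and both strands were searched. The table held 7 of the 10 genes, without Nfkb1, Relb and Nfkbiz. At least 1 match lay in 5 of these 7: Nfkb2, Rel, Nfkbia, Nfkbie and Bcl3. In the whole set of windows a match was found for 9.55% of 27025 genes, and for 6 of the 17 textbook NF-κB targets it holds. Rela and Nfkbib had none, which says only that these letters are not in the window. The stretches around the matches before the start are shown 5′ to 3′ on the gene's strand, because they let the letters be compared between the genes, and capitals mark the matched bases. Overlapping matches on the 2 strands are marked as 1 run.
Nfkb2, chr19:46304678-46304736, plus strand, bases -59 to -1: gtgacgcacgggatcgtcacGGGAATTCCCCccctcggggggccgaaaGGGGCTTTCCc
Nfkb2, a further start site, chr19:46305445-46305488, plus strand, bases -250 to -207: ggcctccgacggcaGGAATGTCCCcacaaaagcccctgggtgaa
Nfkb2, another start site, chr19:46305685-46305734, plus strand, bases -245 to -196: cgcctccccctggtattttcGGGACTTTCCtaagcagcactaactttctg
Rel, chr11:23771031-23771081, minus strand, bases -112 to -62: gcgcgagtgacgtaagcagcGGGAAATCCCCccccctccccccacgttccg
Nfkbia, chr12:55492648-55492696, minus strand, bases -49 to -1: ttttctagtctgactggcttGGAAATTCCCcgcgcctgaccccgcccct
Nfkbie, chr17:45555574-45555623, plus strand, bases -126 to -77: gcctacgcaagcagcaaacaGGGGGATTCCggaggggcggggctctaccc
The window at -59 to -1 of Nfkb2 holds 2 separate matched runs. The match of Bcl3 lay just after the start, at bases 3 to 12. The further start site of Nfkb2 also had a match after the start, at bases 11 to 20. By position it is the same stretch as the match printed for the other start site (-225 to -216). A looser pattern (GGG, 5 or 6 bases of any kind, CC) was present in all 7 genes, but also in 65.4% of genes of the table.

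With LPS, 8 of the 10 genes rose and none fell: Nfkb1, Nfkb2, Rel, Rela, Nfkbia, Nfkbib, Nfkbie and Nfkbiz. Of all genes tested 8.74% were called higher and 54.4% lower. The median difference of the 10 genes was 1.84 on the log2(FPKM + 1) scale. For each of the 8 genes both LPS libraries lay above both naive libraries. These libraries also gave the calls, so this adds no further support, and the share of all genes split in this way was not counted. Relb and Bcl3 did not pass the test, and both did so after rescaling. The test was limma on genotype plus condition over the 6 libraries, with Benjamini-Hochberg adjusted p. Such p-values reflect only how these libraries vary, and the labels do not say whether they came from separate animals.

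Among the subunits, the p105 gene Nfkb1 (mm9 chr3:135247618-135354511) measured 81.2 and 73.3 FPKM in naive WT and KO cells, 325 and 259 FPKM with LPS, and 148 and 134 FPKM after tolerization. The LPS pair was the highest and the naive pair the lowest, with no overlap between conditions. Nfkb1 rose with LPS by 1.90 ± 0.24 (log2, SE, adjusted p = 0.0011). It fell from LPS to tolerized cells, with a difference of -1.03 ± 0.24 (adjusted p = 0.019), a call lost without any 1 of the 4 LPS and tolerized libraries (adjusted p from 0.073 to 0.13). Tolerized cells were still above naive cells by 0.86 ± 0.24 (adjusted p = 0.041), and this call was lost whichever library was left out (adjusted p from 0.058 to 0.26).

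The p100 gene Nfkb2 (mm9 chr19:46379226-46386580) followed another course. Its values were 37.7 and 76.1 FPKM in naive WT and KO cells, 231 and 249.8 FPKM with LPS, and 245 and 245 FPKM after tolerization. The 4 stimulated libraries lay within 231 to 249.8 FPKM, and the 2 naive libraries stood apart from each other. Nfkb2 rose with LPS by 2.14 ± 0.32 (adjusted p = 0.0019) and was higher in tolerized than in naive cells by 2.17 ± 0.32 (adjusted p = 0.0069). Between tolerized and LPS cells it differed by 0.03 ± 0.32 (adjusted p = 0.95), or by -0.58 after rescaling (adjusted p = 0.21).

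Rel, which encodes c-Rel, the subunit needed for full Il12b induction in macrophages, lies at mm9 chr11:23641728-23670970. It measured 16.7 and 10.4 FPKM in naive WT and KO cells, 33.5 and 68.3 FPKM with LPS, and 35.9 and 37.5 FPKM after tolerization. The KO LPS library was the highest of the 6 and the KO naive library the lowest. Rel rose with LPS by 1.78 ± 0.38 (adjusted p = 0.0077) and was above naive cells after tolerization by 1.41 ± 0.38 (adjusted p = 0.040). The LPS difference was 1.14 without the KO LPS and 1.20 without the KO naive library, and 2.37 and 2.43 without the WT naive and WT LPS libraries, and it was called in each case. The tolerized call was lost without the KO naive library (0.82, adjusted p = 0.18) or the WT tolerized library (adjusted p = 0.080).

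Rela (mm9 chr19:5637489-5648130) encodes p65, the main activating partner of p50. Its levels were 48.4 and 60.8 FPKM in naive WT and KO cells, 95.7 and 89.7 FPKM with LPS, and 53.5 and 62.1 FPKM after tolerization. The LPS pair stood above the other 4 libraries, and the naive and tolerized values overlapped. Rela rose with LPS by 0.76 ± 0.23 (adjusted p = 0.025), the smallest difference among the 8 called genes. That call was lost without the WT naive, WT LPS, WT tolerized or KO tolerized library (adjusted p from 0.053 to 0.14). From LPS to tolerized cells the difference was -0.68 ± 0.23 (adjusted p = 0.054), and it passed the test after rescaling (-1.28, adjusted p = 0.016) or without either naive library (adjusted p = 0.044).

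Relb (mm9 chr7:20191570-20214787) encodes the usual partner of p52 and p100. It measured 35.9 and 63.4 FPKM in naive WT and KO cells, 59.7 and 47.2 FPKM with LPS, and 44.3 and 45.7 FPKM after tolerization. The KO naive library held the highest value and the WT naive library the lowest, so the conditions overlapped. The LPS to naive difference was 0.15 ± 0.31 (adjusted p = 0.69). After rescaling it was 1.01 (adjusted p = 0.032). Tolerized cells differed from naive cells by -0.08 ± 0.31 (adjusted p = 0.86), or by 0.17 after rescaling.

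Of the classical inhibitors, Nfkbia (mm9 chr12:56590395-56593634) encodes IκBα, whose resynthesis ends each pulse of NF-κB activity. It measured 99.8 and 206 FPKM in naive WT and KO cells, 809 and 714 FPKM with LPS, and 565 and 600.3 FPKM after tolerization. It was the most abundant of the 10 transcripts in every library, and its conditions did not overlap. Nfkbia rose with LPS by 2.40 ± 0.38 (adjusted p = 0.0024). After tolerization it was above naive cells by 2.02 ± 0.38 (adjusted p = 0.013), a call lost with no filter on low values (adjusted p = 0.054). Between tolerized and LPS cells the difference was -0.38 ± 0.38 (adjusted p = 0.44), or -0.996 after rescaling (adjusted p = 0.096).

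Nfkbib (mm9 chr7:29543269-29551543), the gene of IκBβ, measured 16.2 and 25.4 FPKM in naive WT and KO cells, 92.4 and 83.9 FPKM with LPS, and 62.9 and 59.2 FPKM after tolerization. The conditions did not overlap, with LPS on top. Nfkbib rose with LPS by 2.06 ± 0.26 (adjusted p = 0.0012) and was higher in tolerized than in naive cells by 1.54 ± 0.26 (adjusted p = 0.010). The tolerized to LPS difference was -0.52 ± 0.26 (adjusted p = 0.15), and it passed the test after rescaling (-1.13, adjusted p = 0.033).

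Nfkbie (mm9 chr17:45692664-45700117) encodes IκBε, a slower feedback inhibitor. Its levels were 31.5 and 82.4 FPKM in naive WT and KO cells, 103 and 107 FPKM with LPS, and 73.5 and 81.2 FPKM after tolerization. The WT naive library was the lowest, and the KO naive library lay above both tolerized libraries. Nfkbie rose with LPS by 1.02 ± 0.36 (adjusted p = 0.046). That call was lost without the WT naive library (0.39, adjusted p = 0.26), the WT LPS library (0.68, adjusted p = 0.25) or the KO LPS library (adjusted p = 0.055), and the difference was 1.65 without the KO naive library. The call was also lost with no filter (adjusted p = 0.11) or without the genotype term (adjusted p = 0.076). The tolerized to naive difference was 0.59 ± 0.36 (adjusted p = 0.27), and without the KO naive library it was 1.22 (adjusted p = 0.030).

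Nfkbiz and Bcl3 encode atypical IκB proteins that act in the nucleus on p50 and p52 at promoters. Nfkbiz (mm9 chr16:55811489-55838754), the gene of IκBζ, measured 16.3 and 13.3 FPKM in naive WT and KO cells, 233 and 269 FPKM with LPS, and 105 and 116 FPKM after tolerization. Its conditions did not overlap, and its LPS to naive difference of 4.00 ± 0.24 (adjusted p = 0.00034) was the largest of the 10 genes. Nfkbiz fell from LPS to tolerized cells, with a difference of -1.17 ± 0.24 (adjusted p = 0.014). That call was lost without the WT tolerized, KO LPS or KO tolerized library (adjusted p from 0.053 to 0.081). It was higher in tolerized than in naive cells by 2.83 ± 0.24 (adjusted p = 0.0022).

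Bcl3 (mm9 chr7:20393810-20408104) measured 15.4 and 27.9 FPKM in naive WT and KO cells, 51.3 and 26.4 FPKM with LPS, and 40.1 and 44.1 FPKM after tolerization. In WT the LPS library was the highest, in KO the tolerized one. The LPS to naive difference was 0.80 ± 0.40 (adjusted p = 0.13). It passed the test after rescaling (1.64, adjusted p = 0.016), without the KO LPS library (adjusted p = 0.017) or without the KO naive library (1.41, adjusted p = 0.027). Both tolerized libraries lay above both naive libraries, and that difference was 0.98 ± 0.40 (adjusted p = 0.12). It passed without the KO naive library (1.59, adjusted p = 0.041), the WT LPS library (adjusted p = 0.041) or the KO LPS library (adjusted p = 0.043). The tolerized to LPS difference was 0.18 ± 0.40 (adjusted p = 0.74), or -0.41 after rescaling.

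Several of these transcripts were lower in tolerized than in LPS cells, and more were higher in tolerized than in naive cells. The 3 comparisons share libraries, so their values are not independent. From LPS to tolerized cells 2 of the 10 genes fell, Nfkb1 and Nfkbiz, and none rose, against 4.32% of all genes called lower and 36.8% called higher. Both tolerized libraries lay below both LPS libraries for 7 genes, all but Nfkb2, Rel and Bcl3. The share of all genes split in this way was not counted, so the 7 cannot be judged against it. The count of 2 was 0 without the WT tolerized, KO LPS or KO tolerized library, 1 without the WT LPS library and 3 without either naive library. After rescaling 4 genes fell, Nfkb1, Rela, Nfkbib and Nfkbiz, against 9.45% of all genes called lower with that scaling. The median difference of the 10 genes was -0.41, and after rescaling it was -1.02 beside -0.02 for all genes. Against naive cells 6 genes were higher in tolerized cells and none lower, namely Nfkb1, Nfkb2, Rel, Nfkbia, Nfkbib and Nfkbiz, against 7.41% of all genes called higher and 19.7% called lower. With no filter on low values the members higher than in naive cells were 3, Nfkb2, Nfkbib and Nfkbiz, against 2.97% of all genes. The neutrophil marker sum also was higher in tolerized than in naive cells, at 200.0 against 66.2 FPKM in WT and 348 against 170 FPKM in KO. It was mostly S100a8, at 191 against 65.2 FPKM in WT and 341 against 166 FPKM in KO. Only 2 of the 8 neutrophil markers reached 2 FPKM in any library. The pan-macrophage sum, mostly Lyz2, was lower, and the part of both sums was not tested.

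**Figure D2:**
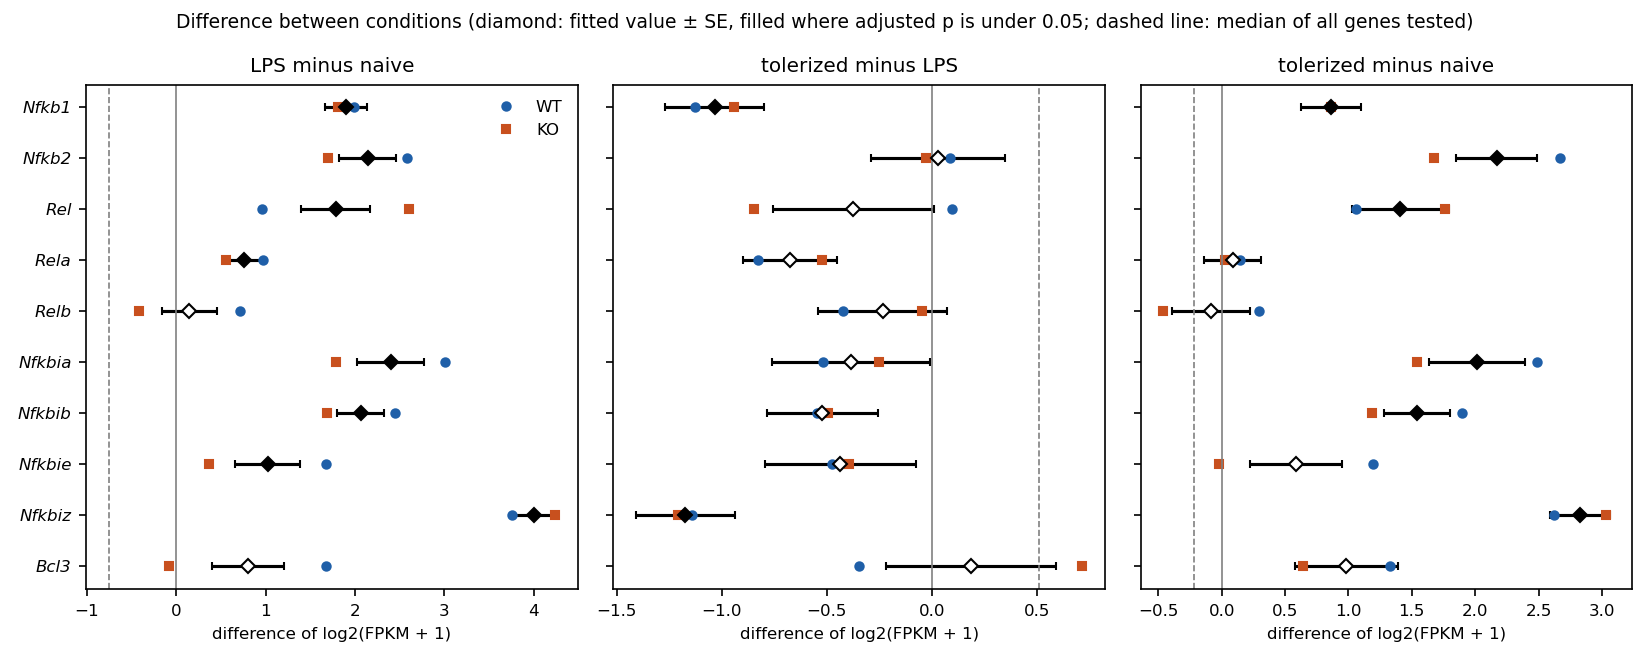
Difference of log2(FPKM + 1) (x axis) for each of the 10 genes (y axis) in 3 comparisons of conditions: circles WT, squares KO, diamonds the fitted value with its SE, filled where the adjusted p was under 0.05, and a dashed line at the median of all genes tested. With LPS the filled diamonds run from 0.76 for Rela to 4.00 for Nfkbiz, and from LPS to tolerized cells Nfkb1 and Nfkbiz alone are filled.

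The make-up of the subunit transcripts differed between conditions, with a larger Nfkb2 share and smaller Rela and Relb shares in the stimulated libraries. Ratios within a library do not depend on how libraries are scaled, and they carry no test, since each group is 1 library. Nfkb1 per Nfkb2 was 2.15 and 0.962 in naive WT and KO cells, 1.41 and 1.04 with LPS, and 0.605 and 0.549 after tolerization. In both genotypes the tolerized library thus had more Nfkb2 than Nfkb1, and the WT naive library had the reverse. As a share of the FPKM of the 5 subunit genes, Nfkb2 made up 17.1% and 26.8% in naive WT and KO cells, 31.0% and 35.0% with LPS, and 46.5% and 46.7% after tolerization. Rela made up 21.4% in KO naive cells and slightly more in WT naive cells, against 10.2% to 12.9% in the 4 stimulated libraries. The share of Relb was 16.3% and 22.3% in naive cells and 6.6% to 8.7% in the others. The precursor genes summed to 1.18 and 1.11 times the Rel, Rela and Relb sum in naive cells and to 2.48 to 2.94 times in stimulated cells.

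**Figure D3:**
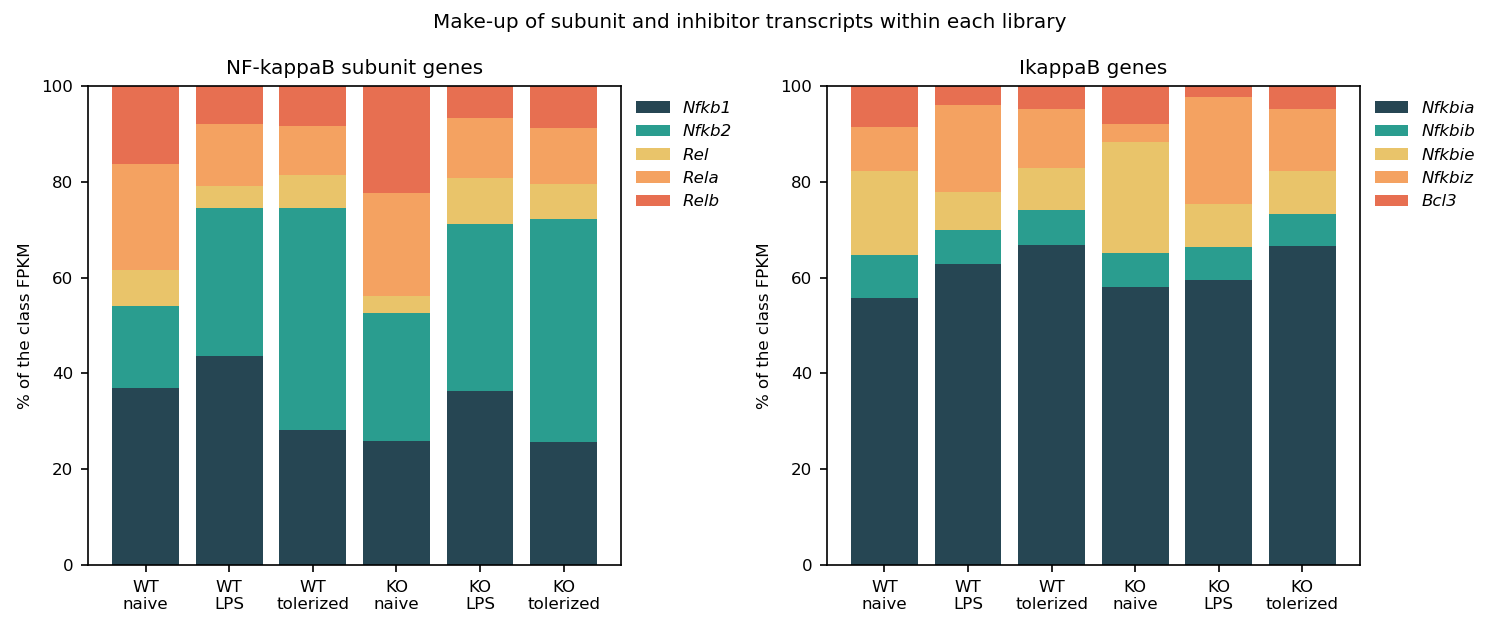
Share of FPKM (y axis, percent) that each gene holds within the 5 subunit genes (left) and the 5 IκB genes (right), 1 bar per library. The Nfkb2 block grows from 17.1% and 26.8% in naive to 46.5% and 46.7% in tolerized cells, and Nfkbia fills 55.7% to 66.8% of the IκB bars.

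Per partner, Nfkb2 to Relb stood at 1.05 and 1.20 in WT and KO naive cells, 3.87 and 5.29 with LPS, and 5.52 and 5.35 after tolerization. Rel per Rela was 0.346 and 0.171 in naive WT and KO cells, 0.350 and 0.762 with LPS, and 0.672 and 0.605 after tolerization. For this transcript ratio the genotypes were thus apart in naive cells, with WT higher, and with LPS, with KO higher. They were close after tolerization.

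Inhibitor transcripts were more abundant relative to subunit transcripts in the stimulated libraries. The 5 IκB genes summed to 0.815 and 1.25 times the 5 subunit genes in naive WT and KO cells, 1.73 and 1.68 times with LPS, and 1.61 and 1.72 times after tolerization. Both naive ratios lay below all 4 stimulated ones, and the KO naive ratio was above the WT one. Without Nfkbia in the sum, the intervals of KO naive (0.525, 0.508 to 0.542) and WT tolerized cells (0.535, 0.524 to 0.545) overlapped. Nfkbia per Rela was 2.06 and 3.38 in naive WT and KO cells, 8.46 and 7.96 with LPS, and 10.6 and 9.67 after tolerization. In both genotypes it was thus higher in tolerized than in LPS cells. Within the IκB genes Nfkbiz held 9.1% and 3.7% in naive WT and KO cells, 18.1% and 22.4% with LPS, and 12.4% and 12.9% after tolerization. The share of Nfkbie was 17.6% and 23.2% in naive cells and 8.0% to 9.0% in the others.

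**Figure D4:**
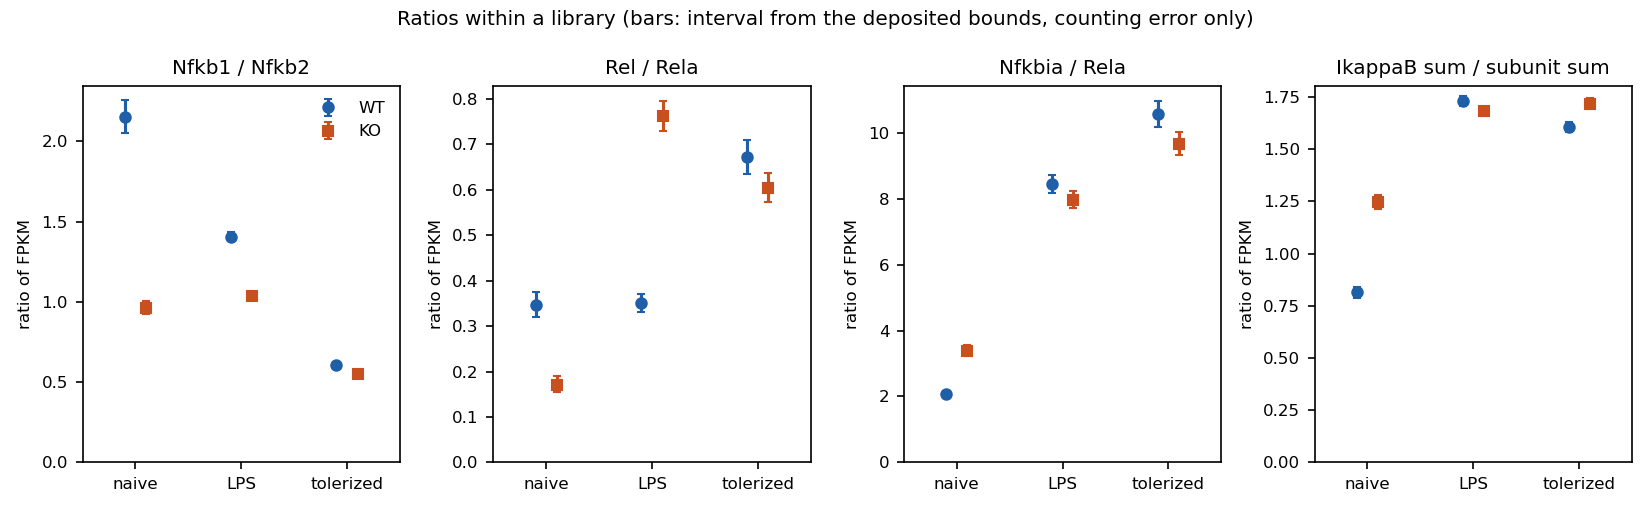
Ratios of FPKM within each library (y axes, linear from 0) for naive, LPS and tolerized cells (x axes), WT circles and KO squares, with bars from the deposited bounds (counting error only). Nfkb1 per Nfkb2 ends at 0.605 and 0.549 in tolerized cells, and the IκB sum per subunit sum is 0.815 and 1.25 in naive cells and 1.61 to 1.73 in the other 4 libraries.

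Genotype was compared to ask whether loss of miR-221 and miR-222 changes these genes. Over all 3 conditions none of the 10 genes differed between KO and WT by limma, as for 0.0% of all 10137 genes, and none had an unadjusted p under 0.05, which 707 of all genes had. The fitted KO minus WT differences ran from -0.20 for Nfkb1 to 0.52 ± 0.29 for Nfkbie, the latter with the lowest adjusted p of the 10 at 0.80. Without the KO tolerized library 152 other genes were called higher and 82 lower, and without the WT tolerized library 148 and 82, with none of the 10 among them. A genotype effect in 1 condition only counts as spread in this fit.

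Genotypes were then compared by single libraries, starting with the naive pair. Nfkbie was 2.61 times as high in KO as in WT naive cells (interval 2.45 to 2.78), Nfkbia 2.06 times (1.96 to 2.16) and Nfkb2 2.02 times (1.91 to 2.13). Of these, Nfkbie and Nfkbia were at least 2-fold higher on the log2(FPKM + 1) scale and none was as much lower, against 3.95% and 3.12% of genes. On that scale Nfkb2 lay just outside at 0.99, beside 1.03 for Nfkbia, and it was the member added when the count was 3, after rescaling or with a pseudocount of 0.1. Bcl3 was 1.82, Relb 1.76, Nfkbib 1.57 and Rela 1.26 times as high in KO naive cells. Rel was at 0.621, Nfkbiz at 0.818 and Nfkb1 at 0.903 of the WT naive value. The 10 genes had a median difference of 0.71, all genes one of -0.04. The KO naive library also held more Tnf, at 220 against 28.7 FPKM in WT naive cells. Il1b (175 against 10.2), Ccl4 (166 against 12.6) and Sod2 (347 against 67.3) were higher there too. Cd40 was close (19.5 against 18.3), and Cd83 was lower (19.7 against 34.3). Every KO difference from naive cells rests on this library. It also held more of the neutrophil marker sum, at 170 against 66.2 FPKM. That sum was mostly S100a8, with Ngp and S100a9 listed at 0 in all 6 libraries. Of large peritoneal macrophage markers, Vsig4 (1.87 against 158 FPKM), F5 (3.39 against 47.4), Alox15 (48.9 against 147) and Gata6 (4.88 against 13.0) were lower in KO naive cells. Timd4 (108 against 35.6), Prg4 (172 against 106) and Cxcl13 (431 against 326) were higher, and Icam2 was close (22.6 against 23.4). The part of these differences in the ratios above was not tested.

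With LPS, Rel was 2.04 times as high in KO as in WT (1.92 to 2.17), the only one of the 10 at least 2-fold higher, against 4.19% of genes. None was 2-fold lower, against 3.04% of genes. Bcl3 lay just outside that limit at 0.516 of the WT value (0.475 to 0.560), a log2 difference of -0.93. The other 8 genes were between 0.791 and 1.16 times WT. After tolerization no gene was 2-fold apart, against 1.81% of genes higher and 0.763% lower. There the 10 ratios of KO to WT ran from 0.907 for Nfkb1 to 1.16 for Rela. These pairs are single libraries, so the intervals do not hold the spread between animals.

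Since the mice lack miR-221 and miR-222, the 3′ UTRs of the members were searched for their seed match. Both microRNAs share the seed, bases 2 to 8, marked in capitals in the RefSeq sequences of GRCm38.p6, chrX:19146307-19146329 and chrX:19146901-19146923, minus strand.
mmu-miR-221-3p: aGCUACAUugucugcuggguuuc
mmu-miR-222-3p: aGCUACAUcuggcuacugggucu
In the GENCODE M21 annotation (GRCm38) 2 of the 10 genes held a match, Nfkbib and Rel, with 1 each, and 8.33% of 21668 genes held at least 1. The sites are shown with the match in capitals.
Nfkbib, base 620 of a 3′ UTR of 766 bases: cacagctggtttATGTAGCaacactag
Rel, base 1007 of a 3′ UTR of 5421 bases: cctcaacctgctATGTAGCcaacgatg
The 3′ UTR of Rel is the longer of the 2, and the median over all genes was 782 bases. Rel in KO relative to WT stood at 0.621 in naive, 2.04 in LPS and 1.04 in tolerized cells. Nfkbib stood at 1.57, 0.908 and 0.942 in the same order. Neither gene was on 1 side of WT in all 3 conditions, and a match is no evidence of a site in use.

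The genes upstream of the 10 were called in both directions with LPS, as were all genes, of which 8.74% were called higher and 54.4% lower, or 23.2% and 23.7% after rescaling. Of 11 genes of the IKK complex and its activating kinases, 2 rose and 3 fell with LPS, and after rescaling 6 rose and 2 fell. Map3k14, which encodes the kinase NIK that drives p100 processing, measured 6.76 and 5.83 FPKM in naive WT and KO cells, 1.09 and 1.44 FPKM with LPS, and 5.29 and 4.73 FPKM after tolerization. It fell with LPS, with a difference of -1.69 ± 0.20 (adjusted p = 0.00099, and -1.07 after rescaling), and from LPS to tolerized cells it rose by 1.41 ± 0.20 (adjusted p = 0.0079). The LPS pair was the lowest, and the tolerized pair lay just under the naive pair. Ikbke, a kinase gene of the IKK family, measured 25.5 and 57.0 FPKM in naive WT and KO cells, 30.7 and 36.4 FPKM with LPS, and 72.2 and 89.0 FPKM after tolerization. It was higher in tolerized than in LPS cells by 1.24 ± 0.28 (adjusted p = 0.019), a call not made after rescaling (0.64, adjusted p = 0.14). Chuk, Ikbkb and Ikbkg, the genes of the core IKK complex, did not pass the test with LPS before rescaling (0.03, 0.48 and 0.06). Their values after rescaling are not given here. The median difference of the 11 genes was 0.03, and 0.87 after rescaling, so these values turn on the shift between libraries.

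Of 11 TRAF, cIAP and linear ubiquitin ligase genes 3 rose and 3 fell with LPS, against 8.74% and 54.4% of all genes. After rescaling 7 rose and none fell, against 23.2% and 23.7%. Traf1, a gene of an adaptor of TNF receptors, rose by 3.56 ± 0.36 (adjusted p = 0.00066). It measured 6.21 and 18.9 FPKM in naive WT and KO cells, 123 and 159 FPKM with LPS, and 159 and 167 FPKM after tolerization. Of 6 receptors that signal to p100 processing 2 rose and 1 fell with LPS, and after rescaling 3 rose and none fell. Cd40 rose with LPS by 4.79 ± 0.26 (adjusted p = 0.00034). Cd40 fell from LPS to tolerized cells, with a difference of -1.59 ± 0.26 (adjusted p = 0.0092).

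Other brakes of the pathway behaved in several ways. Of 9 genes of the A20 complex and deubiquitinases 4 rose and 2 fell with LPS, against 8.74% and 54.4% of all genes. After rescaling 6 rose and none fell, against 23.2% and 23.7%. Tnfaip3, which encodes the ubiquitin-editing enzyme A20, measured 39.6 and 63.3 FPKM in naive WT and KO cells, 463 and 517 FPKM with LPS, and 336 and 304 FPKM after tolerization. It rose with LPS by 3.26 ± 0.29 (adjusted p = 0.00055), and was above naive cells after tolerization by 2.65 ± 0.29 (adjusted p = 0.0036). Tnip1, the gene of the A20 partner ABIN-1, measured 32.3 and 83.6 FPKM in naive WT and KO cells, 202 and 184 FPKM with LPS, and 200.1 and 211 FPKM after tolerization. It rose with LPS by 1.87 ± 0.39 (adjusted p = 0.0072). Its 4 stimulated libraries lay within 184 to 211 FPKM, and the tolerized to LPS difference was 0.09 ± 0.39 (adjusted p = 0.86).

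Of 9 genes of the machinery that degrades IκB none rose with LPS and 2 fell, against 8.74% and 54.4% of all genes. After rescaling 4 rose and none fell, against 23.2% and 23.7%. Btrc, which encodes the ligase subunit that recognises phosphorylated IκB, fell with a difference of -1.02 ± 0.18 (adjusted p = 0.0037), and after rescaling it was not called (-0.46, adjusted p = 0.085). Of 9 other IκB-like or NF-κB-binding genes tested 1 rose and 2 fell, and after rescaling 4 rose and none fell. The riser was Nfkbid, the gene of the further nuclear inhibitor IκBNS, at 23.6 and 28.4 FPKM in naive WT and KO cells, 65.9 and 79.3 FPKM with LPS, and 38.1 and 41.8 FPKM after tolerization. Its LPS to naive difference was 1.44 ± 0.20 (adjusted p = 0.0016), and it fell from LPS to tolerized cells, with a difference of -0.84 ± 0.20 (adjusted p = 0.021). As for Nfkbiz, both LPS libraries were the highest and both tolerized libraries lay between the other conditions.

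Downstream, 21 of 23 textbook NF-κB targets rose with LPS and none fell, against 8.74% and 54.4% of all genes. Their median difference was 5.89, beside 1.84 for the 10 subunit and inhibitor genes. From LPS to tolerized cells 6 fell and none rose, against 4.32% and 36.8% of all genes. After rescaling 8 fell, against 9.45% of all genes. Compared with naive cells 20 were higher after tolerization, against 7.41% of all genes. Tnf, the gene of the cytokine TNF, measured 28.7 and 220 FPKM in naive WT and KO cells, 13818 and 17407 FPKM with LPS, and 1235 and 1352 FPKM after tolerization. It fell from LPS to tolerized cells, with a difference of -3.58 ± 0.71 (adjusted p = 0.013), beside -0.38 ± 0.38 for Nfkbia, which was not called. After rescaling these were -4.20 and -0.996. Of 6 genes reported to need IκBζ, 4 rose with LPS, and 6 after rescaling, against 8.74% and 23.2% of all genes. From LPS to tolerized cells 3 rose and 2 fell, against 36.8% and 4.32% of all genes. After rescaling 1 rose and 2 fell, against 8.72% and 9.45%. Edn1, the endothelin gene, fell by 2.50 on the log2 scale while Lcn2, the gene of the iron-binding protein lipocalin 2, rose by 5.47 ± 0.88 (adjusted p = 0.0090), and both were also called after rescaling. Genes of that list thus moved in both directions where Nfkbiz itself fell.

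**Figure D5:**
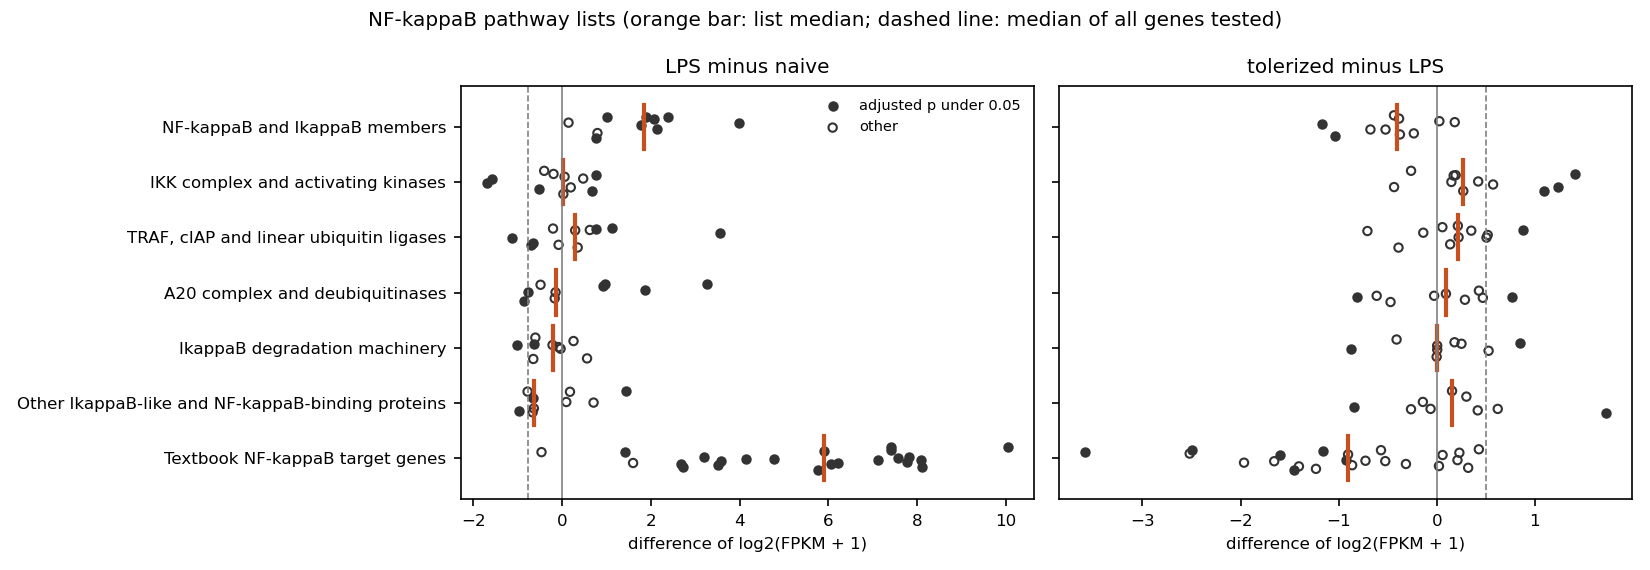
Difference of log2(FPKM + 1) (x axes) for every tested gene of 7 lists of the pathway (y axis), LPS minus naive on the left and tolerized minus LPS on the right, filled where the adjusted p was under 0.05, with the list median as a bar and the median of all genes as a dashed line. On the left the median of the subunit and inhibitor genes is 1.84 and that of the textbook targets 5.89, with the other 5 lists between -0.63 and 0.30. After rescaling, which is not drawn, the medians of these 5 lists lay between 0.22 and 1.13.

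Likeness of course was measured as the root mean square difference of log2(FPKM + 1) over the 6 libraries, each gene centred on its own mean, for the 7311 genes that reached 10 FPKM in any library. It describes these libraries only. The gene outside the 10 nearest to Nfkb2 was Tnip1 (0.17), then Slc15a3 (0.18) and Cd38 (0.24). Nearest to Nfkbia were Adora2a (0.16), Ets2 (0.18) and Lpar1 (0.18), and to Nfkbib Abtb2 (0.12), Ext1 (0.16) and Adora2a (0.19). For Nfkb1 they were Fmnl2 (0.11), Clec2d (0.13) and Tor1aip2 (0.14), and for Nfkbiz Nlrp3 (0.26), Herc6 (0.27) and BC006779 (0.35). Rel was nearest to Trim56 (0.17), Serpina3g (0.19) and Sass6 (0.25), and Rela to Chmp4b (0.07), Gspt1 (0.10) and Plscr1 (0.10). Relb was nearest to Pop7 (0.08), Pik3r5 (0.08) and Orai2 (0.09). Genes near to Nfkbie were Arrdc4 (0.13) and Trim13 (0.16), and those nearest to Bcl3 were Vasp (0.16), Fam108c (0.17) and Ampd3 (0.18). Among the 10 themselves, Nfkb2 and Nfkbia were closest (0.19), then Nfkbia and Nfkbib (0.24) and Rela and Relb (0.30). Nfkbia had rank 3 among all 7310 other genes by likeness to Nfkb2.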

How the data were processed

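Poly-A mRNA of peritoneal macrophages was sequenced in 6 libraries, 1 for each of WT and KO naive, LPS and tolerized cells, grouped by their titles. The authors deposited 1 table per library that holds FPKM and its interval per gene, per the file headers. The reads were handled with bcl2fastq 1.8.4, TopHat and Cufflinks on mm9, per the submitters' processing notes. For TopHat and Cufflinks the versions, and for all steps the annotation and the level of the intervals were not given in the sources used here, nor was whether the triplicates had been pooled.

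Of 23699 rows, 349 not marked OK in a library, 712 rows of 248 repeated symbols and 789 rows of small RNA genes were left out, which kept 22165 (a row could meet more than 1 criterion). The 10137 genes that reached 2 FPKM in 2 or more libraries entered limma 3.58.1 (R 4.3.3) with a trend, two-sided, as log2(FPKM + 1) on genotype plus condition, with 2 residual and 4.2 prior degrees of freedom, Benjamini-Hochberg adjustment and a threshold of 0.05. Differences on this scale understate those of low genes. The fit was also run on simulated data, with an equal spread for all genes and a small set of genes raised. That setting lacks the shift of all genes seen here, so it does not check the fit under such a shift. Library pairs were compared by whether they stood 2-fold or more apart (genes of 2 FPKM or more in 1 of the pair), without a test, and ratios carry the deposited bounds through. Rescaling divided the libraries by factors of 1.32, 0.75 and 1.10 (WT) and 1.30, 0.68 and 1.08 (KO) for naive, LPS and tolerized cells.

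Alternatives were rescaling, a pseudocount of 0.1, no filter, no genotype term, a 1.5-fold rule, other IκB sums, a looser κB pattern and leaving out each library. Genes were named by rule: all members, up to 4 called genes per list with the largest differences, and the 3 nearest genes per member, of which 1 is not reported here. Chuk, Ikbkb and Ikbkg were added after their values were seen. The members and lists were chosen with earlier results of these data known.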

Additional observations from a re-analysis of the deposited data

Results flagged for a closer look

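For 7 of 30 pairs of a member and a comparison of conditions, the WT and KO libraries moved in opposite directions. The share of all genes that did so was not counted, so the 7 cannot be judged against it. Some of the moves were small, such as -0.08 for Bcl3 in KO with LPS. Each of the 7 rests on 1 library per group, and the difference between genotypes was not tested. With LPS against naive cells, Relb had log2 differences of 0.72 in WT and -0.42 in KO (KO minus WT -1.13), and Bcl3 1.68 and -0.08 (KO minus WT -1.75). After rescaling both genes were positive in both genotypes, Relb at 1.53 and 0.49 and Bcl3 at 2.47 and 0.82.

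From LPS to tolerized cells, Nfkb2 moved by 0.08 in WT and -0.03 in KO (KO minus WT -0.11), Rel by 0.10 and -0.85 (KO minus WT -0.94) and Bcl3 by -0.35 and 0.72 (KO minus WT 1.06). After rescaling Nfkb2 (-0.48 and -0.69) and Rel (-0.45 and -1.50) were negative in both genotypes, while Bcl3 was at -0.90 and 0.07. From naive to tolerized cells, Relb moved by 0.29 and -0.46 (KO minus WT -0.76, rescaled 0.55 and -0.21) and Nfkbie by 1.19 and -0.02 (KO minus WT -1.22, rescaled 1.45 and 0.23). Directions were thus still opposite after rescaling in 2 of the 7, Bcl3 from LPS to tolerized cells and Relb from naive to tolerized cells.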

How the results depend on the processing

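Of 390 member values under the alternatives, 350 kept their side of the threshold, 27 lost and 13 gained a call, and no called difference changed sign. Rescaling turned the sign of 3 uncalled differences: Nfkb2 and Bcl3 from LPS to tolerized cells and Relb from naive to tolerized cells. It also moved the share of higher calls over all genes: with LPS from 886 higher and 5511 lower to 2356 and 2398, from LPS to tolerized cells from 3733 and 438 to 884 and 958, and from naive to tolerized cells from 751 and 2002 to 976 and 1131. Members lower from LPS to tolerized cells numbered 4 after rescaling and 0 to 3 when a library was left out. Members higher with LPS numbered 6 to 9 and members higher after tolerization than in naive cells 4 to 6 when a library was left out, and the latter 3 with no filter. Members at least 2-fold higher in KO than in WT naive cells numbered 3, with Nfkb2 added, after rescaling or with a pseudocount of 0.1. With a 1.5-fold rule, 6 members were higher and 1 lower in KO than in WT naive cells, and 1 was lower with LPS.

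The ratio of IκB to subunit FPKM with only Nfkbia, Nfkbib and Nfkbie counted was 0.671 and 1.10 in naive WT and KO cells, 1.35 and 1.27 with LPS, and 1.33 and 1.41 after tolerization. Without Nfkbia the same values were 0.361 and 0.525, 0.643 and 0.682, and 0.535 and 0.573. No paired analysis was possible because the labels give no replicate numbers and each group has 1 library. Where a library was left out, its group had none, and the fit then rests on 1 residual degree of freedom with the spread shared over genes. With 2 libraries per condition, depth known only through the deposited intervals and no replicate of any group, differences below those called cannot be told from none.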
